A study of Mus musculus with 6 samples.

Results

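The genes of the respiratory chain and ATP synthase subunits were followed in primary hepatocytes of mice with and without the succinate receptor gene Sucnr1. Members were all genes whose symbol begins with Ndufa, Ndufb, Ndufc, Ndufs, Ndufv, Uqcr, Cox4, Cox5, Cox6, Cox7, Cox8 or Atp5 (nuclear genes), or with mt-Nd, mt-Co, mt-Cytb or mt-Atp (genes of the mitochondrial DNA). Of 110 symbols with these beginnings, 8 Ndufaf assembly factors, 8 symbols marked as pseudogenes by -ps and 4 others annotated as processed pseudogenes were left out. This gave 90 members among the 25184 genes of the count table. The nuclear members numbered 77, of which 38 were assigned to complex I, 8 to complex III, 14 to complex IV and 17 to complex V. The mitochondrial members numbered 13, of which 7 belong to complex I, 1 to complex III, 3 to complex IV and 2 to complex V. Membership follows the symbol and not biochemistry: Ndufa4, for example, is now placed in complex IV, Atp5s is a coupling factor rather than a core subunit, and Cox7a2l acts in the joining of complexes.

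All mice carried floxed alleles of Sucnr1. Control Sucnr1 fl/fl mice had no Cre, and Hep-Sucnr1 KO mice also carried Cre under the albumin promoter, which is active in hepatocytes, so that other liver cells keep the gene. Hepatocytes were isolated from chow-fed mice, cultured overnight and sequenced as stranded mRNA, with 3 libraries per genotype. In each genotype 1 library was extracted on day 1 and 2 on day 2. The libraries are called fl/fl 1, 2 and 3 and KO 3, 4 and 5 after their labels, and fl/fl 1 and KO 3 are those of day 1. The age of these mice is not given in the sources used here.

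Complexes I, III and IV pass electrons from fuel to oxygen and pump protons out of the mitochondrial matrix, and complex V lets the protons return and makes ATP. Complex II, succinate dehydrogenase, feeds electrons from succinate into the chain and has no mitochondrially encoded subunit. The remaining complexes are mosaics, in which a few core subunits are translated inside the organelle from polycistronic transcripts of the mitochondrial DNA and all others are imported from the cytosol. Hepatocytes are rich in mitochondria, and both sets of transcripts are abundant in them.

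Neighbouring genes of the mitochondrial DNA share bases, which bears on how read pairs are assigned to them. In GRCm38 the reading frames of mt-Atp8 and mt-Atp6 share 43 bases, at chrM:7927-7969 on the plus strand, and those of mt-Nd4l and mt-Nd4 share 7, at chrM:10167-10173. The shared bases are shown in capitals, with 10 flanking bases on each side in lower case.
mt-Atp8 and mt-Atp6: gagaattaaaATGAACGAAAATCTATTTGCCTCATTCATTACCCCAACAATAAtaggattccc
mt-Nd4l and mt-Nd4: acctactacaATGCTAAaaattattct
In both stretches the capitals begin with the ATG of the downstream gene and end with the stop of the upstream gene. How read pairs that overlap 2 genes were counted is not stated. The levels of mt-Atp8 and mt-Nd4l are therefore uncertain, because each is short and is carried on the same mRNA as its larger neighbour. mt-Atp6 and mt-Co3 also share 1 base on the same strand, and mt-Nd5 and mt-Nd6 share 14 on opposite strands, which the count kept apart.

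Nuclear members are known for promoters with sites of the factors NRF1, GABP (an ETS factor) and YY1. Promoter windows of RefSeq (GRCm38.p6), from 250 bases before to 50 after the start, were found for 62 of the 77 nuclear members, with the start nearest to that of the gene annotation taken where a gene had several. On either strand, the NRF1 core motif was in 14 of the 62 windows (22.6%) and in 10.2% of the windows of all 10499 genes tested that had one. The ETS motif CCGGAAG was in 13 (21.0%) against 17.9%, and the YY1 motif AAGATGGC in 8 (12.9%) against 4.55%. The YY1 matches were in 7 of 33 complex I promoters and in 1 of the other complexes. For the GC box GGGCGG the order was the other way, with 24 members (38.7%) against 62.1% of all genes tested. These are matches of letters, not sites. Below are the 250 bases before the start for 3 of the members with values in the following paragraphs, with NRF1 core and ETS matches in capitals. Each of the 3 holds at least 1 such match, while most of the 62 windows hold neither, so they do not stand for the members as a whole.
Ndufs6 (chr13:73328483-73328732, minus strand): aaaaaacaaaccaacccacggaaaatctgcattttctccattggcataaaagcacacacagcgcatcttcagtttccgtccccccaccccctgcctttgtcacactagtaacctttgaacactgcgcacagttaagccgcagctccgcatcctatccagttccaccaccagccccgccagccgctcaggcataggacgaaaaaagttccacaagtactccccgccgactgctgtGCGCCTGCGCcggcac
Uqcr11 (chr10:80406822-80407071, minus strand): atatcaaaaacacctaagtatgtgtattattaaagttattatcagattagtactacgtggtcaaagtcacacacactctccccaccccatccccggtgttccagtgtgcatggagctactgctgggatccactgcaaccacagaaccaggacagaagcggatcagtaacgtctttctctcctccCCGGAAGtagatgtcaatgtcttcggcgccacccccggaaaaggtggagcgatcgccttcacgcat
Cox6a1 (chr5:115348959-115349208, minus strand): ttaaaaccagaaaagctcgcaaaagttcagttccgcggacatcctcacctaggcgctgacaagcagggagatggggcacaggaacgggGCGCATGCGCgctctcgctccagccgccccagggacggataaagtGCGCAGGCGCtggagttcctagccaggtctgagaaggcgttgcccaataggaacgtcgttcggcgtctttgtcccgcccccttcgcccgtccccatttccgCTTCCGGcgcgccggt

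Library totals lay between 30504248 and 38770694 counts. Sucnr1 had 258, 118 and 103 counts in the fl/fl libraries and 84, 28 and 5 in the KO libraries. The summed level of 10 hepatocyte markers was 65287 to 97001 CPM (counts per 1000000, on library sizes scaled by the TMM method) over the libraries, and that of 10 Kupffer cell markers was 8.33 to 138.6. Of 8 skeletal and heart muscle markers 4 were in the table, and none passed the filter on low counts. No gene of the 15105 that passed differed between genotypes at a Benjamini-Hochberg adjusted p below 0.05 by the quasi-likelihood test of edgeR (0.0%), and 563 (3.73%) had an unadjusted p below 0.05. Sucnr1 itself was not called, at a log2 fold change of -2.23 (KO minus fl/fl, unadjusted p = 0.00444, adjusted p = 0.998, edgeR). Its level was 6.71, 3.55 and 3.40 CPM in fl/fl and 2.66, 0.827 and 0.152 CPM in KO, so that KO 3 was not far below fl/fl 2 and 3. DESeq2 called 7, none of them a member.

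The mitochondrial members took a much larger share of the mRNA counts than the nuclear ones. They held 8.57%, 9.03% and 9.08% of all counts in fl/fl 1 to 3, and 7.30%, 9.29% and 8.47% in KO 3 to 5. The groups overlapped, and KO 3 was the lowest of the 6. The 77 nuclear members together held 0.639%, 0.636% and 0.659% in the fl/fl libraries and 0.698%, 0.692% and 0.677% in the KO libraries. Here the 3 KO libraries all lay above the 3 fl/fl libraries, with means of 0.689% ± 0.0105 and 0.645% ± 0.0122 (SD, n = 3 each). The counts of mitochondrial members per count of a nuclear member were 13.4, 14.2 and 13.8 in fl/fl and 10.5, 13.4 and 12.5 in KO. KO 4 and fl/fl 1 were close in this ratio, while KO 3 was far below all others.

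Levels of different genes were compared per length, in TPM (counts divided by exon length and scaled to 1000000 per library). Among mitochondrial members, mt-Co1, the catalytic subunit of complex IV, was highest at 38283 ± 2762 (SD, n = 6 libraries). It was followed by mt-Atp6, the proton channel subunit of complex V, at 20846 ± 2445, and by mt-Co2 and mt-Co3, the other core subunits of complex IV, at 19608 ± 1588 and 17918 ± 1100. mt-Co1 was above the others by more than their spread, while mt-Atp6 and mt-Co2, and mt-Co2 and mt-Co3, lay within their spread of each other. The complex I subunits mt-Nd1, mt-Nd4 and mt-Nd2 stood at 12254 ± 595, 11532 ± 1504 and 10935 ± 1215, and mt-Cytb, the cytochrome b of complex III, at 9818 ± 1199, again without clear steps between neighbours. Lower levels were found for mt-Nd4l (6366 ± 1289), mt-Nd5 (4475 ± 882), mt-Atp8 (3790 ± 591) and mt-Nd3 (1648 ± 116). The last in the order was mt-Nd6, a membrane subunit of complex I, at 162 ± 47.8. It is the only member transcribed from the opposite strand (chrM:13552-14070, minus strand).

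**Figure D1:**
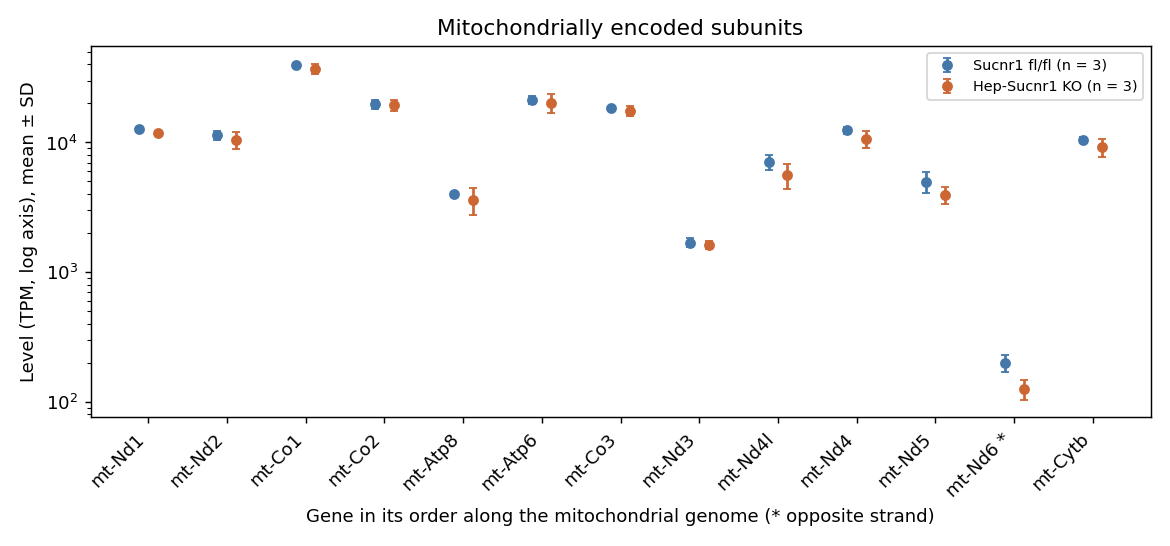
Levels of the 13 mitochondrially encoded subunits in TPM on a log axis, in their order along the mitochondrial genome, as mean ± SD of 3 libraries for Sucnr1 fl/fl (blue) and Hep-Sucnr1 KO (orange). The levels span from mt-Nd6 at 162 TPM over all libraries to mt-Co1 at 38283, and the error bars of the genotypes overlap for all genes but mt-Nd6.

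For nuclear members the median level was 73.6 TPM and that of mitochondrial members 10935, so that the medians of the genomes were 7.21 apart on the log2 scale as a mean of the 6 libraries. With the longest transcript in place of all exons as the length, the distance was 6.61. By complex, the nuclear medians were 54.2 TPM for complex I, 158 for complex III, 141 for complex IV and 81.5 for complex V. This order held in each of the 6 libraries for complexes III and IV above V, and for V above I. Complex III ranged narrowly, from Uqcrc1, a core protein of the matrix side, at 66.6 TPM to Uqcr11, a small membrane subunit, at 251. By the union of exons, the highest nuclear members were Cox6a1 (444 ± 24.0 TPM) and Cox8a (338 ± 10.6), small subunits of complex IV, and the catalytic β and α subunits of ATP synthase, Atp5b (358 ± 6.92) and Atp5a1 (335 ± 9.79, SD, n = 6). Their order depended on the length used. By longest transcript, Atp5b stood at 694 TPM, Cox4i1 of complex IV at 454, Cox6a1 at 440, Atp5a1 at 344 and Cox8a at 334. In complex I the highest were Ndufa4 at 204 TPM and Ndufa1, a small membrane subunit, at 145.5.

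Complex IV has subunits with a broad and a tissue-restricted isoform, and the broad form was the abundant one in each pair measured. Cox6a1 had 153 to 182 CPM, while Cox6a2, its heart and muscle isoform, had at most 0.207 CPM in any library. Cox6b1 lay between 87.7 and 107.7 CPM and its testis isoform Cox6b2 at or under 0.165. The muscle isoform Cox7a1 was at 0.354 to 1.00 CPM against 63.3 to 84.2 for Cox7a2. Cox6a2 and Cox6b2 were the only members below the filter on low counts (a mean of 5 normalized counts). Cox4i1, the ubiquitous form of subunit 4, had 187 to 225 CPM. No gene of the count table carried the symbols of the partners Cox4i2, Cox7b2, Cox8b and Cox8c.

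Some nuclear levels are uncertain from the annotation. Ndufb2 had 2.17 to 3.17 CPM, below all other complex I members, and shares exon bases with Gm42420 on the same strand, so its reads could be split or dropped in counting. Ndufb8, Ndufb9, Atp5o and Atp5g2 also share exon bases with another annotated gene on their strand. Atp5s, the coupling factor, was low at 2.37 to 3.70 CPM without such an overlap.

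**Figure D2:**
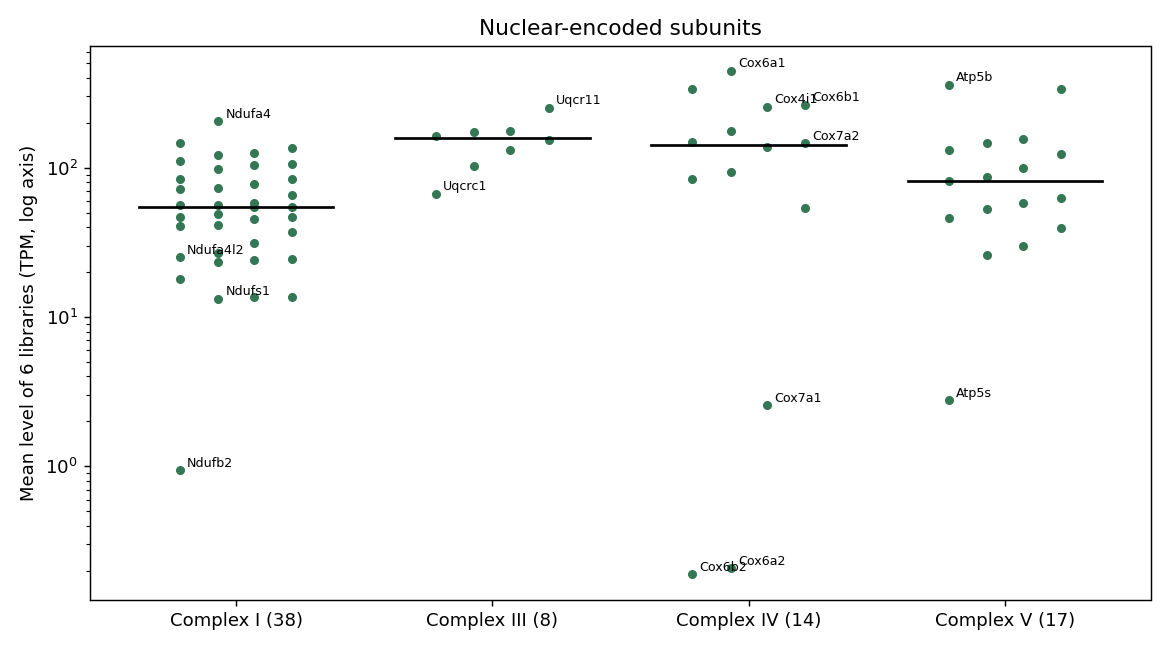
Mean level over the 6 libraries of the 77 nuclear members, in TPM on a log axis, by complex. Points are genes, spread sideways for legibility, and lines are medians (54.2, 158, 141 and 81.5 TPM). Most members lie within a narrow band, with the tissue isoforms Cox6a2, Cox6b2 and Cox7a1, and Ndufb2 and Atp5s, far below it.

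The comparison of genotypes asked whether loss of Sucnr1 in hepatocytes changes the transcripts of the chain. Of the 90 members, 88 were tested: all 13 mitochondrial and 75 nuclear ones. None passed an adjusted p of 0.05 by edgeR or DESeq2, against 0.0% of all genes tested by edgeR. The lowest adjusted p among members in edgeR's quasi-likelihood test was 0.998. At an unadjusted p below 0.05 (3.73% of all genes) there were 2, mt-Nd6, which was lower in KO (background 1.81% of genes lower), and Ndufa2, which was higher (background 1.91%).

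Although no member passed the test, the nuclear members leaned the same way. The fitted log2 fold change (KO minus fl/fl) was above 0 in 72 of the 75, where 50.5% of all genes tested were above 0, and its median was 0.14 (0.003 over all genes). By complex, 37 of 38 members of complex I were above 0 with a median of 0.16, all 8 of complex III with 0.12, 11 of 12 of complex IV with 0.11 and 16 of 17 of complex V with 0.12. The nuclear complexes were thus alike in size. The exceptions were Ndufa4l2 (-0.16), Cox7a1 (-0.14) and Atp5s (-0.09). The typical standard error of a nuclear member was 0.11, close to the shift itself. Members share their libraries and do not count as replicates of each other.

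In 25 of the 75 nuclear members (33.3%) the 3 KO libraries all lay above the 3 fl/fl libraries, and in 0 all below. Over all genes tested the shares were 6.54% and 4.04%. Complex I gave 18 of the 25, complex V 4, complex III 2 and complex IV 1. The largest shift was that of Ndufa2, a small accessory subunit of complex I. Its level was 31.99, 32.09 and 37.42 CPM in fl/fl and 39.98, 40.40 and 42.02 CPM in KO, a log2 fold change of 0.27 ± 0.11 (SE, unadjusted p = 0.0401, adjusted p = 0.998, edgeR). The KO libraries were tight and above fl/fl 3, the highest control. Ndufb3, an accessory subunit of the membrane arm, had 21.3, 18.3 and 20.4 CPM against 23.6, 24.9 and 23.4. Ndufs6, a zinc-binding accessory subunit whose promoter is printed above, had 35.0, 36.8 and 39.2 CPM against 43.24, 45.01 and 41.68. In both genes the gap between the groups was smaller than the range within fl/fl. Among ATP synthase members, Atp5j2, the membrane subunit f, had 74.1, 68.2 and 79.0 CPM against 88.8, 84.1 and 88.6, and Atp5mpl, a small proteolipid, 35.1, 31.5 and 36.8 against 40.8, 39.8 and 41.3. In complex III the largest shift was that of Uqcr11, with 75.9, 76.7 and 84.4 CPM against 92.6, 93.6 and 89.3. In complex IV it was that of Cox5b, with 112, 94.1 and 116 CPM against 120.0, 128 and 123.

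Some core subunits and neighbours of theirs were also compared. Ndufs1, a complex I subunit which holds iron-sulphur clusters, had 57.9, 49.1 and 59.8 CPM in fl/fl and 56.3, 60.7 and 58.9 CPM in KO, and the groups overlapped. Ndufv1, the NADH-binding subunit, had 94.5, 92.2 and 100.5 against 103.4, 108.3 and 108.2, and Ndufs3, a subunit of the peripheral arm, 60.1, 54.8 and 62.1 against 66.8, 64.3 and 68.2, both without overlap. Ndufa13, an accessory subunit also known as GRIM-19, had 84.7, 69.7 and 84.7 against 87.3, 85.7 and 92.1, where KO 4 was only just above fl/fl 1 and fl/fl 3. In complex III, log2 fold changes were 0.04 ± 0.11 for Uqcrc1, 0.06 ± 0.13 for Uqcrc2, its partner core protein, and 0.09 ± 0.12 (SE) for Uqcrfs1, the Rieske iron-sulphur protein. Cox5a, a complex IV subunit of the matrix side, had 82.7, 80.9 and 99.9 CPM against 98.3, 102.8 and 97.9. Atp5b had 810.2, 702.1 and 850.7 CPM against 792.9, 832.9 and 851.8, which overlapped.

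**Figure D3:**
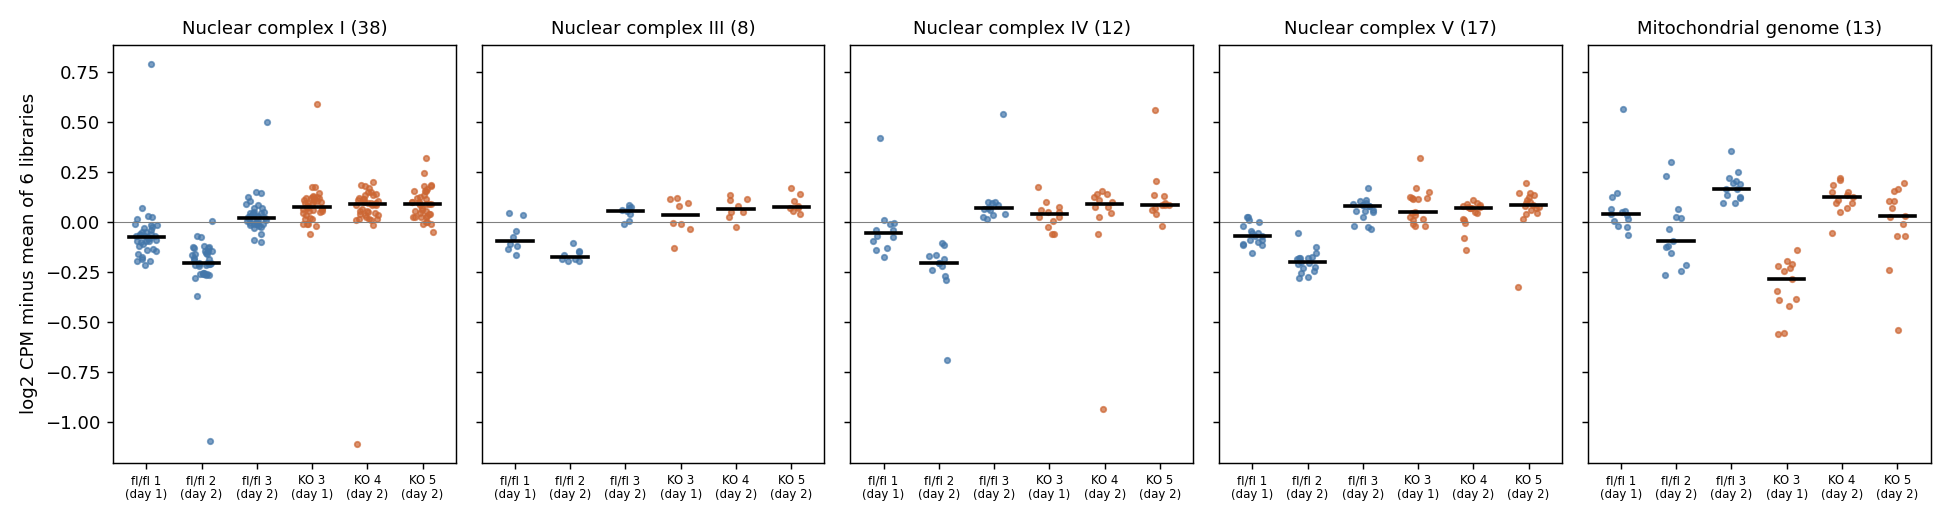
Each point is a member that passed the filter, as its log2 CPM minus its mean over the 6 libraries, by library and complex, with blue for Sucnr1 fl/fl and orange for Hep-Sucnr1 KO. Black lines are medians within each panel. The median over all nuclear members is lowest in fl/fl 2 (-0.19) and that of mitochondrial members in KO 3 (-0.28). The point near -1.1 in complex I is Ndufa4l2 in fl/fl 2 and KO 4.

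The size of the nuclear shift rested partly on single control libraries. The median deviation of nuclear members from their means was -0.07, -0.19 and 0.05 in fl/fl 1 to 3 and 0.07, 0.08 and 0.09 in KO 3 to 5. Of the 75 members 62 were lowest in fl/fl 2, and fl/fl 3 stood close to the KO libraries. Without fl/fl 2 the median log2 fold change was 0.09, and without fl/fl 3 it was 0.21. Without fl/fl 3 the number of members that did not overlap was 59 in place of 25 (12.6% of all genes tested). The scaling also mattered for fl/fl 2, which had the largest TMM factor (1.09). As a plain share of counts its nuclear members were level with those of fl/fl 1. The library names in the labels number fl/fl 1 and 2 apart from the other 4 libraries, whose numbers follow each other. What this numbering stands for is not stated. The nuclear medians were -0.07 and -0.19 in fl/fl 1 and 2 and 0.05 to 0.09 in all libraries of the other numbers, fl/fl 3 included. The numbering thus partly coincides with genotype, and its part in the shift was not tested.

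Over all genes, the log2 fold change between genotypes also moved with transcript length. For the 1149 other genes whose longest transcript was at most 750 bases, the median log2 fold change was 0.20, and 18.6% of them lay higher in all KO libraries. The median fell through 0.16 (750 to 1000 bases), 0.10 (1000 to 1500), 0.06 (1500 to 2000) and 0.03 (2000 to 3000), to -0.03 (3000 to 5000) and -0.11 above 5000 bases. Most nuclear members are short, with a median longest transcript of 1001 bases against 2993 over all genes tested. Up to 1500 bases, the 49 nuclear members had a median of 0.15 and the 3037 other genes 0.14. In that range 47 of the members were above 0 (95.9%, against 73.0% of the other genes), and 19 of the 49 did not overlap, against 15.9% of the other genes. Longer nuclear members did not fall with length as the other genes did. Their medians were 0.14 (1500 to 2000 bases, 11 members), 0.09 (2000 to 3000, 8 members) and 0.15 (3000 to 5000, 6 members). The 1 member above 5000 bases was at 0.17. Each of these was above the median of the other genes in its bin. After the trend on length was subtracted, a step chosen after the data were seen, the nuclear median was 0.04 with 54 of 75 members above 0. By complex it was then 0.06, 0.01, -0.04 and 0.03 for complexes I, III, IV and V, so that the direction turned for complex IV. Cytosolic ribosomal proteins, also encoded by short and abundant mRNAs and looked at after the data were seen, had a median of 0.15. Of the 88, 52 (59.1%, against 6.54% of all genes tested) were higher in all KO libraries. With the length trend removed their median was 0.04, with 63 of 88 above 0. What sets the length trend was not tested.

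**Figure D4:**
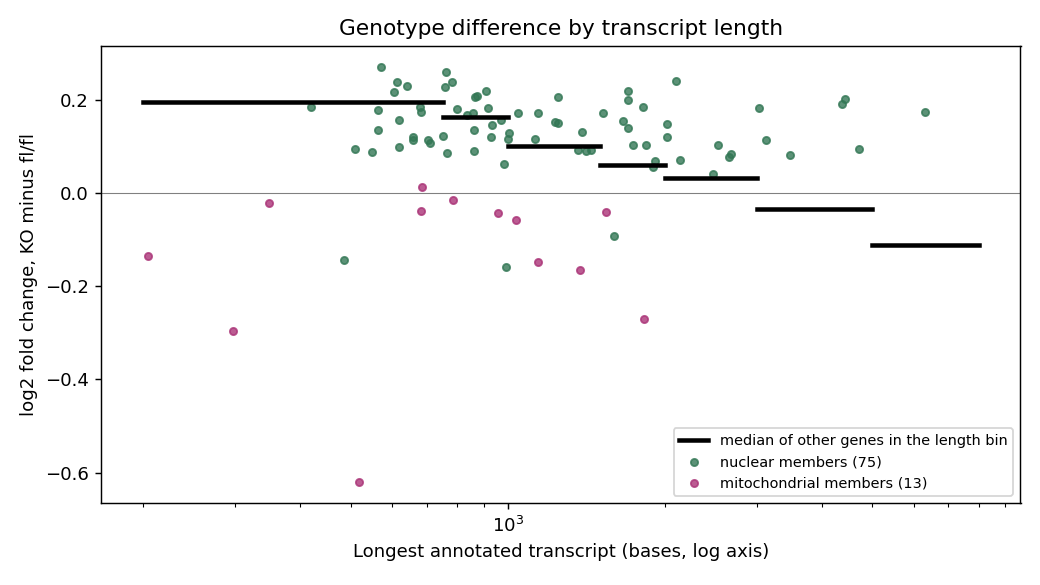
Log2 fold change between genotypes (KO minus fl/fl) against the longest annotated transcript on a log axis, for the 75 nuclear (green) and 13 mitochondrial (magenta) members tested. Black lines are the medians of all other genes in each length bin, which fall from 0.20 to -0.11. Nuclear members up to 1500 bases scatter around these lines, while mitochondrial members of the same lengths lie below them. Nuclear members above 1500 bases have medians above the lines.

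In the fit of all libraries, the mitochondrial members did not show the shift of the nuclear ones. Their fitted log2 fold change was below 0 in 12 of 13, where 49.5% of all genes tested were below 0, with a median of -0.06. By complex the medians were -0.17 for complex I, -0.15 for mt-Cytb, -0.02 for complex IV and -0.09 for complex V, with standard errors near 0.18. The sign of the median rested on day 1, where KO 3 was the lowest of all libraries in 10 of the 13. Without KO 3 the median was 0.03, and without fl/fl 1 it was also 0.03. Both fits leave a single library on day 1, which the day term absorbs. Both therefore compare the day 2 libraries alone and do not separate KO 3 from fl/fl 1. Within day 1 (KO 3 minus fl/fl 1) the median was -0.30 and within day 2 it was 0.04. For nuclear members these medians were 0.14 and 0.15. Single mitochondrial members ranged within day 2 from -0.49 (mt-Nd6) to 0.17 (mt-Atp6). Some complex I members kept their direction: mt-Nd4, mt-Nd4l, mt-Nd5 and mt-Nd6 stayed below 0 under each of 15 alternatives. Their ranges were -0.25 to -0.03, -0.43 to -0.10, -0.38 to -0.18 and -0.81 to -0.48. The other mitochondrial members each changed sign under some alternative. With the length trend removed, all 13 were below 0 with a median of -0.25. That trend was fitted mostly on nuclear mRNAs.

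Values by library show the pattern. mt-Co1 had 30774, 30546 and 34095 CPM in fl/fl and 26918, 34366 and 31848 in KO, and mt-Nd1 6127, 5725 and 7127 against 5648, 6441 and 6356. mt-Cytb had 6552, 5534 and 6647 CPM against 4420, 6335 and 6375. mt-Atp6 had 7679, 6452 and 8716 against 5728, 8311 and 8566. In each of them the groups overlapped, with the lowest value in KO 3 and the next lowest in fl/fl 2. mt-Nd5, the largest membrane subunit of complex I, had 4312, 5252 and 4559 CPM against 3504, 4608 and 3616, so that fl/fl 2 was here the highest and not a low library. mt-Nd4l was also highest in fl/fl 2, with 1074, 1155 and 1052 against 668, 1119 and 937. The count ratio of mt-Nd5 to mt-Nd1 was 0.704, 0.917 and 0.640 in fl/fl and 0.620, 0.716 and 0.569 in KO, so fl/fl 2 stood apart in the make-up of its mitochondrial counts too.

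Other values differed in KO 3 as well. The summed level of Kupffer cell markers was 8.33 CPM there and 37.9 to 138.6 CPM in the other 5 libraries, and that of sinusoidal endothelial markers was 40.7 CPM against 62.2 to 110.1. Hepatocyte markers stood at 73064 CPM, within the range of the others. The 2 mitochondrial ribosomal RNAs held 0.398% of the counts in KO 3 and 0.378% to 0.531% in the others. The part of other cells in the mitochondrial values was not tested, and in bulk RNA fewer cells of a type and less RNA per cell cannot be told apart.

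The mitochondrial member that differed most was mt-Nd6. Its level was 63.5, 43.5 and 55.0 CPM in fl/fl 1 to 3 and 33.7, 41.3 and 29.5 CPM in KO 3 to 5. All KO libraries were below all fl/fl libraries, though KO 4 and fl/fl 2 were close. The log2 fold change was -0.62 ± 0.18 (SE, unadjusted p = 0.0108, adjusted p = 0.998, edgeR's quasi-likelihood test). It stayed between -0.81 and -0.48 under the alternatives tried, with a lowest adjusted p of 0.613, in DESeq2. The ratio of mt-Nd6 to mt-Nd5 counts was 0.0147, 0.00829 and 0.0121 in fl/fl and 0.00963, 0.00896 and 0.00816 in KO, which overlapped. The tRNA genes of the same strand had 5.55, 4.16 and 4.31 counts per 1000000 of the library in fl/fl and 2.20, 4.64 and 1.72 in KO, where KO 4 lay within the controls. In each library the largest part of this sum was mt-Tp, with 136, 70 and 79 counts in fl/fl and 27, 94 and 35 in KO. The tRNA genes of the other strand had 19.7, 25.3 and 26.4 against 22.9, 19.1 and 18.8, mostly from mt-Tw. The mt-Nd6 transcript is known to carry little or no poly(A) tail, and the libraries were made from poly(A) RNA. Histone genes, listed by symbols beginning Hist1h or Hist2h as mRNAs taken to lack a tail, were also summed. They had 361, 281.5 and 354 counts per 1000000 in fl/fl and 338.5, 299.6 and 419.8 in KO, and overlapped. Whether the histone mRNAs counted here had tails was not checked. The part of poly(A) tails in the mt-Nd6 values was not tested.

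Extraction day was compared in the same fit. By edgeR's quasi-likelihood test no member and 0 of all genes tested (0.0%) passed an adjusted p of 0.05, with 1132 genes (7.49%) at an unadjusted p below 0.05. DESeq2 called 225 genes, none a member. Nuclear members had a median log2 difference (day 2 minus day 1) of 0.01 and mitochondrial members of 0.20, against 0.02 over all genes tested. Of the mitochondrial members 12 of 13 were above 0 (53.3% of all genes tested), with mt-Atp8 (0.36) and mt-Nd4l (0.32) the highest and mt-Nd6 (-0.16) the only one below. Without KO 3 the mitochondrial median was -0.03. The interaction of genotype and day called 0 of the 15105 genes (0.0%), and no member had an unadjusted p below 0.05 for it, against 3.69% of all genes.

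Most nuclear members varied little between libraries of a genotype. The median coefficient of variation was 6.20% for nuclear and 13.3% for mitochondrial members, against 16.2% over all genes tested, many of which have far fewer counts. Among the 75 tested, Ndufa4l2 varied most, followed by Cox7a1 (43.3%), which was at about 1 CPM or less and was lowest in the same libraries, fl/fl 2 and KO 4. The product of Ndufa4l2 is a paralogue of Ndufa4 known to rise in low oxygen and to lower oxygen use. Ndufa4l2 had 22.3, 6.02 and 18.2 CPM in fl/fl 1 to 3 and 19.4, 5.97 and 16.1 CPM in KO 3 to 5, with a coefficient of variation of 52.6%. The low pair, fl/fl 2 and KO 4, crossed the genotypes. The log2 fold change between genotypes was -0.16 ± 0.47 (SE) and that between days -0.85 (unadjusted p = 0.124). Ndufa4 itself, at 138, 134 and 155 CPM against 154.9, 159.1 and 160.0, was not low in KO 4.

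The same pair of libraries was low in other genes known to rise in low oxygen, which were listed from textbook knowledge after the values of some of them had been seen. Of 29 such genes that passed the filter, fl/fl 2 and KO 4 were the 2 lowest libraries in 24 (82.8%), as in 11.3% of all genes tested, and fl/fl 2 was the lowest in 26. Ero1l, an oxidase of protein folding, had 2359, 750.4 and 1925 CPM in fl/fl and 1524, 1228 and 2059 in KO. Ankrd37 had 15.4, 5.47 and 10.8 CPM against 13.8, 6.35 and 10.9, Slc2a1, a glucose transporter, 722.3, 379.1 and 727.3 against 766.2, 454.0 and 662.7, and Bnip3, a mitophagy receptor, 257.0, 137.0 and 231.4 against 217.2, 159.6 and 227.5. Ndufa4l2 had a deeper dip in KO 4 than their median did, with -1.11 against -0.22 on the log2 scale from its 6-library mean, and in fl/fl 2 it had -1.10 against -0.55. The pericentral genes Glul, of glutamine synthetase, and Cyp2e1, a cytochrome P450, were highest in the same pair, also looked at after the values were seen. Glul had 538.7, 646.0 and 438.6 CPM in fl/fl and 398.2, 1002.3 and 423.3 in KO, and Cyp2e1 1169, 2078 and 1429 against 1383, 3430 and 684. Their part in the Ndufa4l2 values was not tested. The low-oxygen genes were listed with some values known and share these libraries, so that they are no independent evidence. Oxygen in the dishes was not measured in the files used here.

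**Figure D5:**
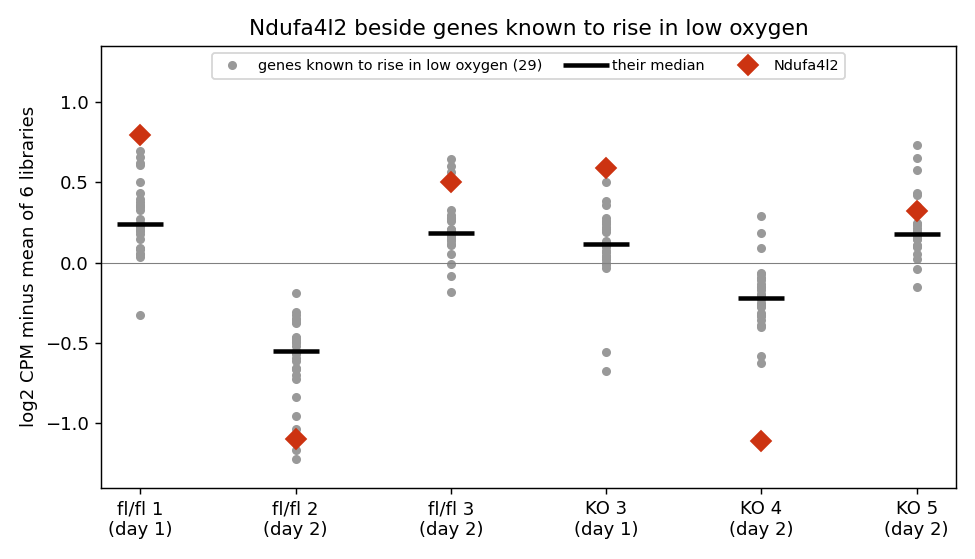
Log2 CPM minus the mean of the 6 libraries for Ndufa4l2 (red) and 29 genes known to rise in low oxygen (grey, black line at their median), by library. Both are low in fl/fl 2 (-1.10 and -0.55) and KO 4 (-1.11 and -0.22), a pair that holds 1 library of each genotype, both of day 2.

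Genes that build or run the chain were compared in the same way, and none passed the adjusted test. Of 15 complex I assembly factors 12 were above 0 with a median log2 fold change of 0.12, led by Nubpl (0.34 ± 0.19, SE), which delivers iron-sulphur clusters. Of 26 factors for complexes III and IV, 20 were above 0 (median 0.06), from Ttc19 (-0.24 ± 0.15) to Cmc2 (0.33 ± 0.20). The 4 complex V factors had a median of 0.06, with 2 on each side of 0, from Tmem70 (-0.20 ± 0.11) to Atpaf2 (0.25 ± 0.12). The succinate dehydrogenase genes and the genes of cytochromes c1 and c, 6 in all, lay between 0.01 (Cyc1) and 0.13 (Sdhb). Mitochondrial ribosomal proteins, which build the ribosome that translates the mitochondrial members, were above 0 in 68 of 77 with a median of 0.09, and 19 (24.7%, against 6.54% of all genes tested) were higher in all KO libraries. With the length trend removed their median was 0.04, with 55 above 0. Those with the largest shifts were Mrpl55 (0.36 ± 0.14) and Mrpl21 (0.33 ± 0.13).

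Genes that copy or transcribe the mitochondrial DNA had a median of -0.06 (6 of 15 above 0), and those that handle its RNA 0.04 (12 of 18 above 0). Rexo2, a mitochondrial oligoribonuclease, was 38.5 ± 1.99 CPM in fl/fl and 45.4 ± 1.41 CPM (SD, n = 3) in KO. The nuclear regulators of respiratory genes were mostly below 0, in 10 of 12, with a median of -0.12. Their transcripts are long, with a median of 5117 bases. The lowest was Ppargc1a, the gene of the coactivator PGC-1α, at 3.24 ± 0.735 CPM in fl/fl and 2.06 ± 0.478 CPM in KO (log2 fold change -0.63 ± 0.26, unadjusted p = 0.0445, adjusted p = 0.998, edgeR), and the highest was Gabpb1 at 0.14 ± 0.11. The mitochondrial ribosomal RNAs mt-Rnr1 and mt-Rnr2 had log2 fold changes of -0.09 ± 0.21 and -0.16 ± 0.20.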

How the data were processed

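Bulk stranded mRNA was sequenced from 6 libraries of primary hepatocytes. The authors trimmed reads (Trim Galore 0.6.7), aligned them to GRCm38 (STAR 2.7.10a) and counted read pairs per gene by strand with featureCounts and Ensembl annotation. The deposited values are raw counts per gene, not normalized. The handling of read pairs matching several genes is not given in the sources used here, so values of near-identical copies are uncertain.

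Symbols, exon lengths, transcripts and strands were taken from GENCODE M21 (GRCm38), which named 25096 of 25184 identifiers. The filter on low counts required an average over 5 normalized counts and left 15105 genes. Counts were fitted with extraction day and genotype as terms (edgeR 4.0.16, R 4.3.3, TMM scaling, quasi-likelihood test, Benjamini-Hochberg adjustment, threshold 0.05), on all genes, as in the design of the study, which used DESeq2. DESeq2 1.42.0 was an alternative, in which adjusted p-values given as missing stayed missing. CPM are on TMM-scaled library sizes, and plain shares are of the total count. TPM used the union of exons. The length trend was a lowess curve (statsmodels 0.14.6, span 0.3). Totals of 30504248 to 38770694 counts give at least 30 counts at 1 CPM. The spread of values between libraries of a genotype, given as SD or SE, is taken to be between mice, as far as the labels tell.

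Named members were all mitochondrial members, for each nuclear complex the 2 highest levels and the largest shifts in each direction by genotype and by day, isoform pairs, 10 core subunits (of which 1 is not reported here), and the 6 non-overlapping members with the smallest p. The members and lists were chosen with earlier results of these data known. The tests were checked on simulated counts.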

Additional observations from a re-analysis of the deposited data

How the results depend on the processing

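No paired analysis was run, because the labels name no pairs of mice. The replicate number 3, which both genotypes have, belongs to libraries of different extraction days. No member was called for genotype or day under DESeq2's size factors, library size alone, scaling on nuclear genes, no filter, edgeR's own filter, DESeq2, no covariate, a robust fit, day 2 alone (genotype only) or with any library left out. Over all genes, DESeq2 called 7 for genotype. For day, DESeq2 called 225, the fit without a filter 122, and the range with a library left out was 0 to 29 (29 without fl/fl 2), against 0 in the fit reported. For genotype that range was 0 to 0. The median log2 fold change of nuclear members ranged from 0.09 (without fl/fl 2) to 0.21 (without fl/fl 3) with a library left out and was 0.0394 with the length trend removed. For mitochondrial members the range was -0.21 (without fl/fl 2) to 0.03 (without fl/fl 1), and the median was -0.25 with the length trend removed. It was 0.03 also without KO 3 or on day 2 alone. The fits without fl/fl 1, without KO 3 and on day 2 alone are the same comparison of the day 2 libraries. The number of nuclear members higher in all KO libraries, with libraries left out as a step added after the data were seen, was 25 to 59 (59 without fl/fl 3). Over all genes tested the share was then 9.07% to 12.6%, against 6.54% with all libraries. Without fl/fl 2 there were 25 such members (33.3%), against 11.8% of all genes tested. The log2 ratio of mean mitochondrial shares (KO over fl/fl) was -0.09, with -0.19 per nuclear member count, -0.16 without the 20 most counted genes, and -0.17 to -0.002 with a library left out (-0.002 without KO 3). The log2 distance between the levels of the genomes was 7.21, 6.61 by longest transcript, and 7.18 to 7.28 with a library left out. Of 45 named members tested, 18 changed sign under an alternative, among them 9 mitochondrial ones, and 27 did not. The causes were not tested.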
